A study of Mus musculus with 16 samples.

Results

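The structural myelin genes are genes whose products build or line the myelin sheath: *Mbp*, *Mobp*, *Cldn11*, *Mal*, *Mag*, *Mog*, *Cnp*, *Ugt8a* and *Opalin*. They were taken by gene symbol, and all 9 of the 9 symbols were found among the 18167 genes of the table. In the spinal cord, myelin is made by oligodendrocytes, which wrap axons in many turns of their own membrane and squeeze out most of the cytoplasm between the turns. The sheath speeds conduction and feeds the axon, its lipids and proteins are replaced slowly through adult life, and its genes are among those read most strongly in white matter.

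RNA sequencing of stranded mRNA libraries was done on spinal cords of 16 male mice carrying a human profilin 1 transgene. Mutant mice carried the G118V form (transgene Tg(Prnp-PFN1*G118V)838Kiaei on a C57BL/6N background), which models amyotrophic lateral sclerosis, and wild-type controls carried the unchanged human form (transgene Tg(Prnp-PFN1)850Kiaei, same background), so both genotypes had human profilin 1 beside the mouse gene. The wild-type young (WY, n = 3) and mutant young (MY, n = 3) mice were 50 days old and without symptoms. The mutant old (MO, n = 5) mice were at the end stage, at 198, 190, 245, 224 and 175 days for MO1 to MO5, and the wild-type old (WO, n = 5) mice were 190 days old in WO1, WO2 and WO3 and 294 days old in WO4 and WO5. In both strains the mouse *Prnp* promoter drives the transgene, each genotype is a single transgenic line by its strain name, and no mouse without a transgene was included. Levels are log2(1 + FPKM) as deposited, already adjusted for the 2 library batches by the authors, where FPKM is the number of fragments scaled to transcript length and library size. The number of fragments behind a gene is unknown, so precision is given by the spread between mice. The tissue is bulk, so fewer cells of a type and less RNA per cell cannot be told apart.

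Libraries that stood apart come before the results. *Mbp* was at 5.36 in WO4, against 12.16 to 14.22 in the other 15 mice, although for the 8 other myelin genes WO4 lay within 0.209 of the nearest WO mouse. Of the 262 genes with a median level of at least 8, only *Mbp*, *Mir678* and *Mir686* had any mouse over 3 log2 units from their median. Every mouse is labelled male, yet MO5 had *Xist* at 3.21, where no other library exceeded 0.37, and *Ddx3y*, a gene of the Y chromosome, at 1.95, where no other fell under 4.06. Batch 2 held only old mice (WO4, WO5, MO4 and MO5), and the young mice all belonged to batch 1. With WO4 and MO5 both left out, an alternative chosen after the data were seen, the myelin genes lower at an FDR of at most 0.05 numbered 7 in WY vs. WO (0.842% of all genes), 7 in MY vs. MO (11.7%) and 1 in WO vs. MO (9.43%), where all mice gave 7 (0.892% of all genes), 5 (12.5%) and 2 (12.9%).

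This layout touches every comparison of young with old mice. In the adjusted values the mean of the 4 batch 2 mice lay within 0.1 of the mean of the 12 batch 1 mice for 97.1% of genes, although 6 of the batch 1 mice were young. Relative to the 6 old mice of batch 1, the old mice of batch 2 were higher by 0.19 in *Mobp*, 0.30 in *Cldn11*, 0.34 in *Mag*, 0.38 in *Cnp*, 0.42 in *Mal*, 0.49 in *Mog*, 0.58 in *Ugt8a* and 0.71 in *Opalin*, while for *Mbp*, with WO4 among them, the difference was -0.39. The part of the batch adjustment in these differences was not tested, and in the old wild-type mice batch and age cannot be told apart. In the paragraphs on each of the 9 genes, values from the batch 1 mice alone therefore stand beside the pooled ones. For the other lists the batch 1 counts of called genes do. In young against old mice, a fit with batch as a term gives the batch 1 fold changes again, because batch 2 held no young mouse. Only its error estimate differs, so it is not a separate check there.

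The labelled tissue was checked by markers. Over the 16 mice the neuron marker *Snap25* had a mean of 10.43 and the astrocyte marker *Gfap* a mean of 10.17, while the Schwann cell markers ranged widely, with means under 0.1 in 2 of the 9, 0.15 in *Cldn19*, 0.21 in *Prx*, 0.27 in *Pmp2*, 0.40 in *Egr2*, 1.33 in *Ncmap*, 3.37 in *Drp2* and 6.35 in *Pmp22*, which other cells also make. The 9 myelin genes differed widely in level. In the WY mice *Mbp* was the most abundant of all 18167 genes by mean (13.05 ± 0.16, SD, n = 3), followed among the myelin genes by *Cnp* (9.42 ± 0.030). *Cldn11* (8.94 ± 0.056), *Mobp* (8.91 ± 0.096), *Mag* (8.86 ± 0.047) and *Mal* (8.83 ± 0.036) came next, and each overlapped its neighbour in this order. *Mog* (8.07 ± 0.068), *Ugt8a* (7.55 ± 0.059) and *Opalin* (6.53 ± 0.15) followed without overlap between neighbours.

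The basic proteins of compact myelin come first. *Mbp* codes for myelin basic protein, which holds the cytoplasmic faces of the membrane together. It was at 13.23, 12.92 and 13.00 in the WY mice, 13.03, 13.00 and 12.93 in the MY mice, 12.61, 12.49, 12.42, 5.36 and 14.22 in WO1 to WO5 and 12.16, 12.16, 12.24, 14.11 and 14.14 in MO1 to MO5. The 6 old mice of batch 1 lay below every young mouse, whereas WO5, MO4 and MO5, all of batch 2, lay above every young mouse. The pooled log2 fold change was -1.63 ± 1.75 (SE) in WY vs. WO (FDR = 0.776) and -0.024 ± 0.54 (SE) in MY vs. MO (FDR = 0.982). Among batch 1 mice it was -0.54 ± 0.10 (SE) in WY vs. WO (FDR = 0.0743), -0.80 ± 0.049 (SE) in MY vs. MO (FDR = 0.000212) and -0.32 ± 0.066 (SE) in WO vs. MO (FDR = 0.0242). In WO vs. MO the pooled value had the opposite sign, 1.55 ± 1.42 (SE) (FDR = 0.479). With so wide a spread the pooled comparisons of *Mbp* carry little information. The batch adjustment of a gene uses all of its libraries, WO4 among them, so the batch 1 values of *Mbp* are not free of it either.

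*Mobp*, a smaller basic protein of compact central myelin, was at 9.01, 8.90 and 8.82 in the WY mice and 8.89, 8.90 and 8.89 in the MY mice. It was at 8.71, 8.50, 8.59, 8.85 and 8.80 in the WO mice and 8.49, 8.29, 8.20, 8.43 and 8.53 in the MO mice. Every MO mouse lay below every MY mouse, but WO and WY overlapped, because WO4 lay above WY3. MO and WO also overlapped, since MO5 and WO2 crossed. *Mobp* fell by 0.51 ± 0.077 (SE) in MY vs. MO (FDR = 0.00242; batch 1 mice -0.57, FDR = 0.00358) and by 0.30 ± 0.083 in WO vs. MO (FDR = 0.0202). In batch 1 the WO vs. MO value was -0.28 and did not pass (FDR = 0.103). The pooled WO vs. MO call was lost with an FDR of 0.0533 without WO5 and 0.0503 without MO2. In WY vs. WO *Mobp* was -0.22 with a 95% interval of -0.42 to -0.027 (FDR = 0.296). In batch 1 it was -0.31, which did not pass either.

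Membrane proteins of the compact sheath follow. *Cldn11*, the claudin of the tight junctions that run through the sheath, was at 8.99, 8.88 and 8.94 in the WY mice and 8.85, 8.84 and 8.92 in the MY mice. It was at 8.03, 7.99, 8.08, 8.20 and 8.10 in the WO mice and 8.29, 8.39, 8.19, 8.71 and 8.86 in the MO mice. All 5 WO mice lay below the young mice and close together, and the MO mice spread upward from the WO range. MO4 lay below every young mouse, but MO5 lay above MY1 and MY2, so MO and MY overlapped. *Cldn11* fell by 0.86 ± 0.056 in WY vs. WO (FDR = 0.00112; batch 1 -0.90, FDR = 0.00375), to 0.552 of the WY value. It was -0.38 in MY vs. MO, which did not pass (FDR = 0.0952), but did in batch 1 (-0.58, FDR = 0.00161). It was the only myelin gene higher in MO than in WO mice at FDR of at most 0.05, by 0.41 ± 0.12 (SE) (FDR = 0.0261), and in batch 1 the difference was 0.26 (FDR = 0.0537), just outside the threshold. The pooled call in WO vs. MO was lost with an FDR of 0.0522 without WO1, 0.0586 without WO2, 0.0522 without WO5 and 0.0565 without MO4, and with quantile normalization (0.33, FDR = 0.0624), but passed with batch as a term (FDR = 0.00387), and *Cldn11* passed in MY vs. MO with 0.0244 without MO5.

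*Mal* codes for a proteolipid of sphingolipid-rich membrane that takes part in sorting myelin components. Its levels were 8.83, 8.86 and 8.79 in the WY mice and 8.78, 8.75 and 8.78 in the MY mice, against 7.90, 7.76, 7.93, 8.25 and 8.10 in the WO mice and 7.63, 7.61, 7.45, 8.11 and 8.09 in the MO mice. Every old mouse lay below every young mouse of its genotype, and WO and MO overlapped. *Mal* fell by 0.84 ± 0.10 in WY vs. WO (FDR = 0.0129; batch 1 -0.96, FDR = 0.00417) and by 0.99 ± 0.16 in MY vs. MO (FDR = 0.0027; batch 1 -1.20, FDR = 0.000114). In WO vs. MO it was -0.21 (FDR = 0.321; batch 1 -0.30, FDR = 0.045), so that the batch 1 value passed and the pooled one did not. With batch as a term all 10 old mice gave -0.21, which also passed (FDR = 0.0369). The WY vs. WO call was lost with an FDR of 0.0518 without WY1, 0.0503 without WY2 and 0.079 without WY3.

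The proteins of the sheath's inner and outer surface followed. *Mag*, an adhesion molecule on the innermost membrane that faces the axon, was at 8.88, 8.80 and 8.89 in the WY mice and 8.78, 8.76 and 8.76 in the MY mice. It was at 8.53, 8.40, 8.46, 8.57 and 8.56 in the WO mice and 7.67, 7.91, 8.27, 8.57 and 8.46 in the MO mice. The WO mice were tightly grouped below the WY mice, whereas the MO mice ranged from well below every WO mouse (MO1, MO2 and MO3) to within the WO range (MO4 and MO5). *Mag* fell by 0.36 ± 0.052 in WY vs. WO (FDR = 0.0239; batch 1 -0.40, FDR = 0.0358). It was -0.59 ± 0.19 (SE) in MY vs. MO (FDR = 0.0548; batch 1 -0.82, FDR = 0.00838) and -0.33 ± 0.15 (SE) in WO vs. MO (FDR = 0.143; batch 1 -0.51, FDR = 0.0636). The WY vs. WO call was lost with an FDR of 0.0802 without WY1, 0.0574 without WY2, 0.125 without WY3, 0.0603 without WO1, 0.0525 without WO2 and 0.0658 without WO3. *Mag* passed in MY vs. MO with an FDR of 0.0465 without MO1, 0.0241 without MO4 and 0.0475 without MO5, and in WO vs. MO with 0.0494 without MO4. In MY vs. MO it passed in 10 of 17 alternatives. Among them were quantile normalization (0.0143), only genes with a mean of at least 1 (0.0395) and 1 fit of the 4 groups (0.0102).

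*Mog*, on the outermost surface of the sheath, was at 8.12, 7.997 and 8.11 in the WY mice, 7.92, 7.95 and 7.93 in the MY mice, 7.20, 7.08, 7.26, 7.49 and 7.51 in the WO mice and 6.51, 6.83, 6.88, 7.53 and 7.27 in the MO mice. Old mice of both genotypes lay below the young mice, and within batch 1 the 3 MO mice lay below the 3 WO mice. *Mog* fell by 0.77 ± 0.10 in WY vs. WO (FDR = 0.0178; batch 1 -0.90, FDR = 0.00698) and by 0.93 ± 0.20 in MY vs. MO (FDR = 0.0118; batch 1 -1.19, FDR = 0.000594). WO vs. MO gave -0.30 (FDR = 0.239), and -0.44 in batch 1 (FDR = 0.0417). In WY vs. WO the *Mog* call was lost with an FDR of 0.0684 without WY1, 0.0531 without WY2, 0.103 without WY3, 0.0516 without WO1 and 0.0561 without WO3.

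Enzymes came next. *Cnp* codes for a phosphodiesterase of the cytoplasm-filled channels that run through the sheath. Its levels were 9.43, 9.38 and 9.43 in the WY mice, 9.28, 9.29 and 9.34 in the MY mice, 8.78, 8.67, 8.86, 9.06 and 9.04 in the WO mice and 8.38, 8.59, 8.55, 9.05 and 8.92 in the MO mice. Each old group lay wholly below its young group, and the old groups overlapped each other. *Cnp* fell by 0.53 ± 0.091 in WY vs. WO (FDR = 0.0418; batch 1 -0.65, FDR = 0.0124) and by 0.60 ± 0.14 in MY vs. MO (FDR = 0.0161; batch 1 -0.80, FDR = 0.000566). In WO vs. MO it was -0.19 (FDR = 0.331; batch 1 -0.26, FDR = 0.0739). The *Cnp* call in WY vs. WO was lost with an FDR of 0.118 without WY1, 0.0961 without WY2, 0.154 without WY3, 0.0944 without WO1, 0.0663 without WO2 and 0.091 without WO3, and that in MY vs. MO with 0.0563 without MY1, 0.0522 without MY2 and 0.0645 without MY3.

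*Ugt8a* codes for the transferase that makes galactosylceramide, the typical lipid of myelin. It was at 7.49, 7.61 and 7.57 in the WY mice, 7.55, 7.43 and 7.35 in the MY mice, 6.45, 6.57, 6.72, 6.95 and 6.75 in the WO mice and 5.06, 5.81, 5.78, 6.76 and 6.14 in the MO mice. MO1 was the lowest of the 16 mice, MO4 alone among the MO mice lay within the WO range, and every old mouse lay below every young one. *Ugt8a* had the largest pooled age difference of the 9 genes in mutant mice. It fell by 1.53 ± 0.31 in MY vs. MO (FDR = 0.00876; batch 1 -1.89, FDR = 0.00152), to 0.345 of the MY value. In WY vs. WO it fell by 0.87 ± 0.10 (FDR = 0.0129; batch 1 -0.97, FDR = 0.00846). The WY vs. WO call was lost with an FDR of 0.0503 without WY2 and 0.079 without WY3. *Ugt8a* also fell by 0.78 ± 0.25 in WO vs. MO (FDR = 0.0436; batch 1 -1.03, FDR = 0.021). That pooled call passed in 8 of 20 alternatives. It was lost when any mouse other than MO4 was left out, with an FDR between 0.0516 (without WO1) and 0.0957 (without WO4), and with a pseudocount of 0.1 (FDR = 0.0512).

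*Opalin* codes for a membrane glycoprotein of mature oligodendrocytes. It was at 6.57, 6.36 and 6.67 in the WY mice, 5.86, 5.98 and 6.12 in the MY mice, 4.84, 5.15, 5.37, 5.44 and 5.57 in the WO mice and 4.24, 4.69, 5.64, 6.13 and 5.65 in the MO mice. The WO mice lay below every young mouse, and the MO mice had the widest range apart from *Mbp*, from MO1, the lowest of all, to MO4, level with the highest MY mouse. *Opalin* fell by 1.26 ± 0.16 in WY vs. WO (FDR = 0.0145; batch 1 -1.41, FDR = 0.0166), to 0.418 of the WY value. In MY vs. MO it was -0.72 ± 0.39 (SE) (FDR = 0.231; batch 1 -1.13, FDR = 0.0514). WO vs. MO showed -0.0032 ± 0.32 (SE) (FDR = 0.997; batch 1 -0.26, FDR = 0.679), with an interval of -0.72 to 0.71. The *Opalin* call in WY vs. WO was lost with an FDR of 0.0594 without WY1 and 0.0873 without WY3.

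**Figure D1:**
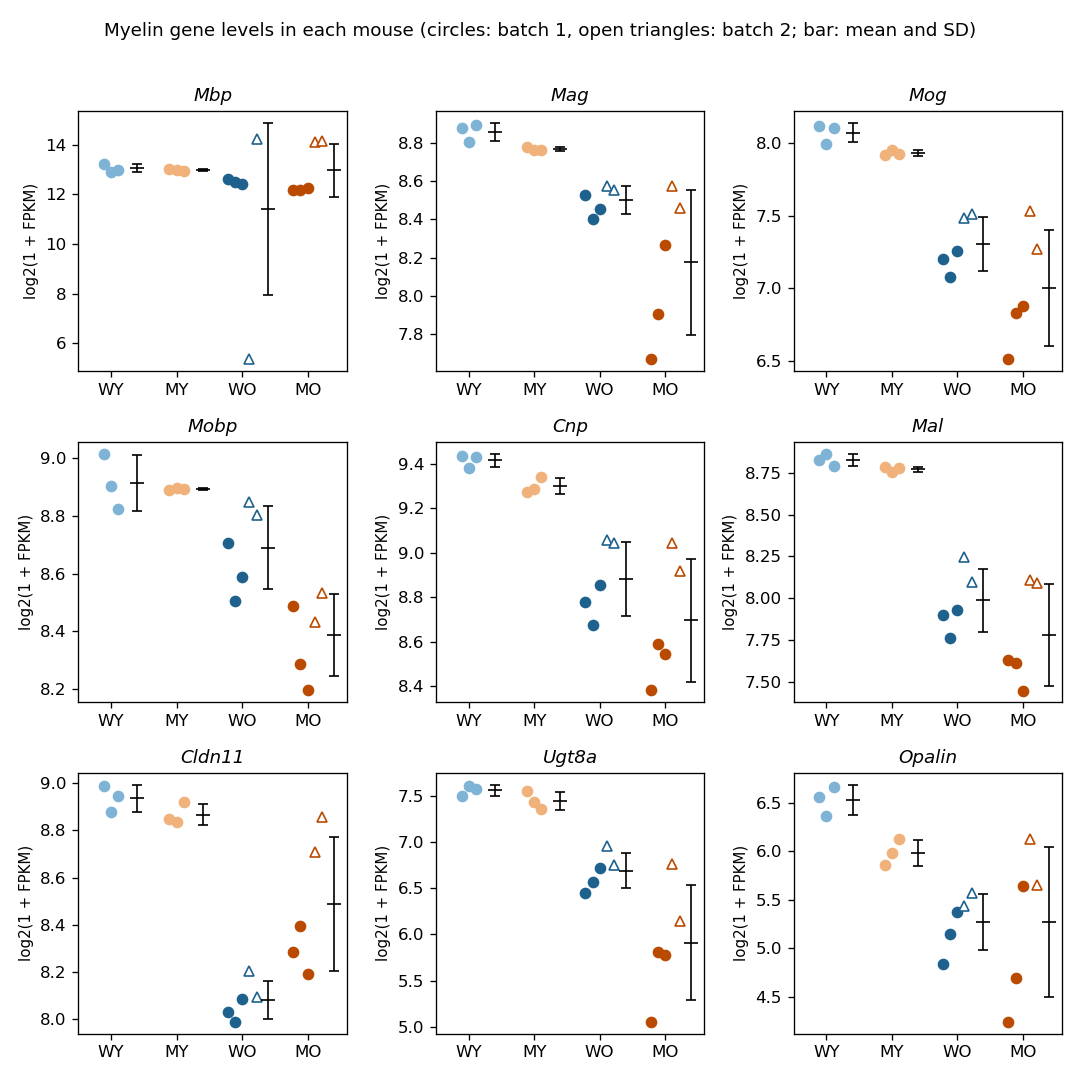
Level of each myelin gene, as batch-adjusted log2(1 + FPKM) on the vertical axis, in each mouse of the WY, MY, WO and MO groups; filled circles are batch 1 mice, open triangles batch 2 mice, and bars the group mean and SD. *Mbp* in WO4 sits at 5.36, far below the other 15 mice, and for the other genes the old batch 2 mice tend to sit above the old batch 1 mice.

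Counted over the 9 genes, the wild-type mice showed the following with age. In WY vs. WO, 7 of the 9 were lower at an FDR of at most 0.05 and none was higher, against 0.892% of all 18167 genes that were lower by the same rule. With a fold change of at least 1.5 as well, 5 of 9 passed (*Mal*, *Cldn11*, *Ugt8a*, *Opalin* and *Mog*), against 0.204% of all genes. In 7 of the 9, every WO mouse lay below every WY mouse, as in 5.86% of all genes. The median log2 fold change of the 9 was -0.84, beside 0.0018 over all genes. Batch 1 mice alone gave 7 of 9 as well (0.859% of all genes), and so did the fit without WO4 (7 of 9). The fit with batch as a term has the same fold changes as batch 1 alone (median -0.90 in both). It gave 7 of 9 too, against 1.32%. In 1 fit of the 4 groups the count was 3 (*Mal*, *Cldn11* and *Mog*), against 0.782% of all genes, since *Cnp* (FDR = 0.0651), *Mag* (0.296), *Opalin* (0.0843) and *Ugt8a* (0.12) did not pass. *Cnp* and *Mag* were also lost with quantile normalization (0.148 and 0.157), a pseudocount of 0.1 (0.0728 and 0.0654) and an intensity trend (0.0558 and 0.0557). Leaving out a mouse lowered the count to 2 without WY1 (0.154% of all genes), 2 without WY2 (0.303%), 1 without WY3 (0.0385%), 4 without WO1 (0.275%), 5 without WO2 (0.253%) and 4 without WO3 (0.237%), while the median stayed between -0.86 and -0.78.

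In mutant mice, MY vs. MO had 5 of 9 lower and none higher, against a background of 12.5% of genes lower. Under both thresholds it had 4 of 9 (*Mog*, *Mal*, *Cnp* and *Ugt8a*), against 0.787%. Every MO mouse lay below every MY mouse in 6 of 9, against 15.9% of all genes. The median of the 9 was -0.60, beside 0.0047 over all genes. In batch 1 alone 8 of 9 were lower (median -0.82), with *Opalin* the exception, against 12.2% of all genes. With batch as a term, at the same fold changes as batch 1 alone, all 9 were lower, against 11.9%. Without MO5 the count was 7, against 11.7%. It was 4 without MY1, 4 without MY2 and 4 without MY3, against 6.23%, 7.72% and 6.40% of all genes.

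The end-stage mutant mice were set against the old wild-type mice. In WO vs. MO, 2 of 9 were lower (*Mobp* and *Ugt8a*), against 12.9% of all genes, and 1 was higher (*Cldn11*), against 15.0%. With batch as a term on the same 10 mice, 5 of 9 were lower (*Mobp*, *Ugt8a*, *Mal*, *Mog* and, just inside the threshold, *Cnp*), against 12.5%. *Cldn11* was higher, against 14.5%. The batches split the 10 mice alike in number but not in age. The batch 2 mice were 294 days old in WO and 224 and 175 days old in MO. Within batch 2, genotype and age therefore cannot be told apart. *Ugt8a* alone passed both thresholds, against 0.517% of genes. No gene had every MO mouse below every WO mouse, compared with 8.65% of all genes. The median of the 9 was -0.21, beside 3.5e-04 over all genes. In batch 1 alone 4 of 9 were lower (*Mbp*, *Mog*, *Mal* and *Ugt8a*), against 5.86% of all genes, and none higher, against 8.52%, with a median of -0.30. In batch 2 alone, a choice made after the data were seen that leaves 2 mice a group, *Cldn11* was 0.63 higher in MO (FDR = 0.0176), where 7.12% of all genes were higher, and *Mobp* was -0.34 (FDR = 0.0499), where 1.98% were lower, while *Ugt8a* was -0.40 (FDR = 0.284), *Opalin* 0.38 (FDR = 0.206), *Mbp* 4.34 (FDR = 0.363), with WO4 included, and *Mag*, *Mog*, *Cnp* and *Mal* between -0.097 and -0.048. Batch 2 includes MO5, whose *Xist* and *Ddx3y* levels stood apart from its male label. MO5 was also the highest of the MO mice for *Cldn11*. The pooled count of lower genes fell to 0 without WO5 (9.71% of all genes) and 0 without MO2 (10.4%), to 1 without WO1, WO2, WO3, WO4, MO1, MO3 or MO5 (10.5% to 12.8%), and was 3 without MO4 (12.4%).

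**Figure D2:**
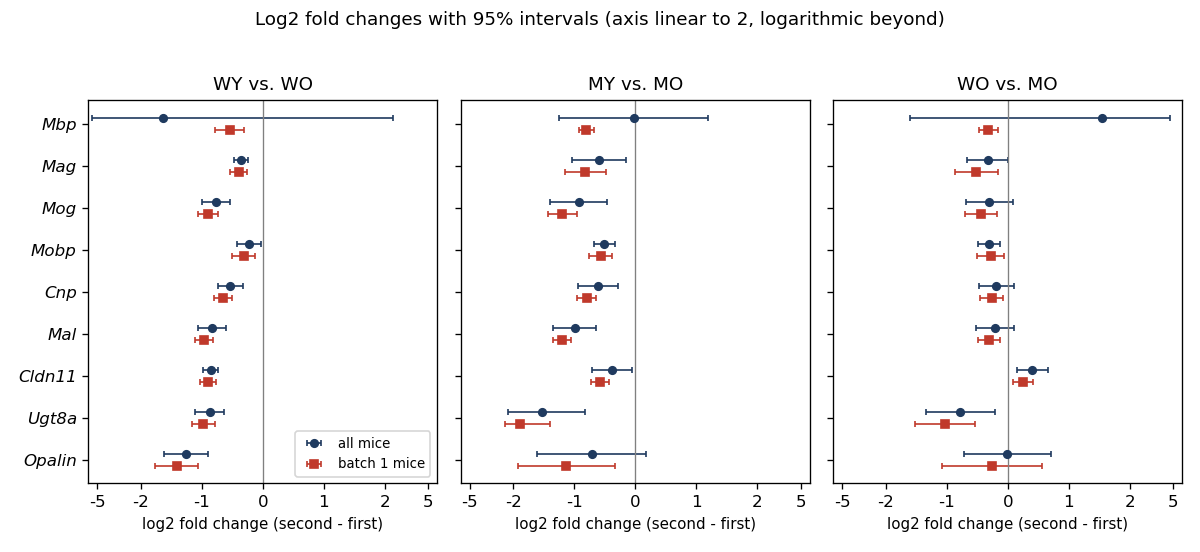
Log2 fold change of each myelin gene (second group minus first) with its 95% interval in WY vs. WO, MY vs. MO and WO vs. MO, for all mice (dark circles) and for batch 1 mice (red squares); the horizontal axis is linear to 2 and logarithmic beyond. Except for *Cldn11* in WO vs. MO, the batch 1 values are below 0, and the pooled intervals of *Mbp* are far wider than the others.

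Young mutant and wild-type mice were compared before symptoms. In WY vs. MY none of the 9 passed (lowest FDR 0.455), and 1 gene of the whole table, 0.0055%, was called in either direction by limma. At an unadjusted p under 0.05, 3 of the 9 passed (*Cnp*, *Mog* and *Opalin*), against 7.16% of all genes. In 5 of 9 (*Mag*, *Mog*, *Cnp*, *Mal* and *Opalin*) every MY mouse lay below every WY mouse, against 7.52% of all genes, with 3 mice in each group. The signs depend on the scaling: quantile normalization moved the median of the 9 from -0.091 to 0.0071 and turned *Mag* (0.0071) and *Mal* (0.063) of these 5 positive, and *Cldn11*, *Mbp* and *Mobp* as well. *Opalin* had the largest difference, -0.54 ± 0.10 (SE), with an interval of -0.79 to -0.30 (FDR = 0.455). The other 8 lay between -0.14 and -0.021, and for none of the 9 does the missed threshold show equal levels.

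Whether age acted differently in the genotypes was tested with all 16 mice, as MO minus MY less WO minus WY. None of the 9 passed in limma, against 17.7% of all genes called in either direction. An unadjusted p under 0.05 was found in 2 of the 9, against 31.1% of all genes. *Cldn11* came nearest, at 0.48 ± 0.17 (SE) (FDR = 0.0622). It passed with batch as a term on all 16 mice (0.48, FDR = 0.00929), where 10.5% of all genes were called higher, and in batch 1 mice (0.32, FDR = 0.0278). *Ugt8a* was -0.67 ± 0.36 (SE) (FDR = 0.221) and also passed in batch 1, where it was -0.92 (FDR = 0.0298). Leaving out a mouse of the 16 let *Cldn11* pass with an FDR of 0.0372 without MO1 and 0.0239 without MO3, and *Ugt8a* with 0.0317 without MO4. In the pooled values 6 of 9 were negative and 3 (*Mbp*, *Cldn11* and *Opalin*) positive.

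The 9 genes were also read mouse by mouse. The mean level of the 8 genes other than *Mbp*, left out after its value in WO4 was seen, was 8.41, 8.35 and 8.40 in the WY mice, 8.24, 8.24 and 8.26 in the MY mice, 7.55, 7.52, 7.66, 7.85 and 7.80 in the WO mice and 7.03, 7.27, 7.37, 7.91 and 7.74 in the MO mice. The young mice spanned little, MO1 was lowest, and MO4 was above every WO mouse. The SD was larger in MO than in WO mice for 7 of 9 genes, the exceptions being *Mbp* and *Mobp*, and larger in MO than in MY mice for all 9. Within MO, MO1 was lowest for 6 of 9 genes and a batch 2 mouse was highest for all 9. Pearson's r between pairs of the 9 genes had a median of 0.81 over 16 mice (range -0.077 to 0.99 over 36 pairs). It was 0.85 for the 28 pairs without *Mbp* and 0.90 over the 12 batch 1 mice. The mice share their groups and batches, so these are descriptions.

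The 5 genes whose levels ran most like the mean z-score of all 9 over 16 mice were *Gamt* (r = 0.966), *Srd5a1* (0.965), *Abhd5* (0.962), *Chst3* (0.957) and *Ick* (0.956), out of 13521 genes with a mean of at least 1. Without *Mbp* they were *Enpp6* (0.976), *Hn1l* (0.975), *Cdkn1c* (0.972), *Abhd5* (0.971) and *Hmgcs1* (0.968). In the 12 batch 1 mice, with all 9 genes, *Hn1l* (0.991) and *Hmgcs1* (0.990) led, followed by *Tspan9* (0.989), *Cdkn1c* (0.988) and *Fntb* (0.988). These lists differ with *Mbp* and with the batch.

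Further genes of myelin were read from a list of 28, all in the table. For this and the lists that follow, the share of all genes called lower was 0.892% in WY vs. WO, 12.5% in MY vs. MO and 12.9% in WO vs. MO, and higher 0.231%, 13.1% and 15.0%. In batch 1 alone it was 0.859%, 12.2% and 5.86% lower, and 0.176%, 12.7% and 8.52% higher, and with batch as a term 1.32%, 11.9% and 12.5% lower, and 0.303%, 12.7% and 14.5% higher. With any 1 mouse left out, the share of all genes called lower ran from 0.0385% (without WY3) to 0.842% (without WO4) in WY vs. WO, from 6.23% (without MY1) to 13.2% (without MO1) in MY vs. MO and from 9.71% (without WO5) to 12.8% (without MO1) in WO vs. MO. In WY vs. WO, 11 of the 28 were lower and none higher, with *Gsn* at -0.97, *Gamt* at -0.88 and *Tspan2* at -0.79 the largest. In MY vs. MO, 12 were lower and 1 higher, and in WO vs. MO 5 were lower and 1 higher. Batch 1 alone gave 12, 18 and 4 lower in these comparisons, and 0, 1 and 1 higher. With batch as a term 19 were lower in MY vs. MO and 3 higher in WO vs. MO. Without both WO4 and MO5, 2 were lower in WO vs. MO, against 9.43% of all genes. With any 1 mouse left out the lower genes numbered 2 to 9 in WY vs. WO (2 without WY3), 4 to 17 in MY vs. MO (4 without MY1) and 2 to 10 in WO vs. MO (2 without WO4, WO5, MO2 or MO3, and 10 without MO4). The higher ones then numbered 1 in MY vs. MO (8.0% to 15.0% of all genes) and 1 to 3 in WO vs. MO (12.4% to 15.5%). *Fa2h*, which hydroxylates myelin lipids, fell by 1.13 ± 0.17 in MY vs. MO, and *Gjc3*, a glial connexin, fell by 0.60 ± 0.11 in WO vs. MO. *Cd9*, a tetraspanin also made by other cells, rose to 2.23 times the MY value in MY vs. MO and to 2.83 times the WO value in WO vs. MO, and passed in the difference of age effects (1.77, FDR = 0.00014). The medians of the 28 were -0.26, -0.40 and -0.20 in WY vs. WO, MY vs. MO and WO vs. MO.

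Enzymes of myelin lipids were read from a pair of lists. Of 18 genes of sterol synthesis, the route to the cholesterol of myelin, 17 were lower in MY vs. MO, 7 in WO vs. MO and 4 in WY vs. WO, with none higher and medians of -0.83, -0.39 and -0.46. Batch 1 alone gave 18, 13 and 14 lower, and batch as a term 18, 15 and 15, with none higher in either. Without both WO4 and MO5 the count in WO vs. MO was 1. With any 1 mouse left out it ran from 10 (without MY1 or MY2) to 18 in MY vs. MO, from 3 (without WO4, WO5, MO2 or MO3) to 14 (without MO4) in WO vs. MO and from 0 (without WY1 or WY3) to 4 in WY vs. WO. *Hmgcs1*, which makes an early intermediate, fell by 1.51 ± 0.24 in MY vs. MO (FDR = 0.0031) and by 1.00 ± 0.17 in WY vs. WO (FDR = 0.0412). Of 19 genes for sphingolipids and long-chain fatty acids (*Ugt8a*, *Gal3st1* and *Fa2h* among them), 12 were lower and 3 higher in MY vs. MO, 8 lower and 3 higher in WO vs. MO and 4 lower in WY vs. WO. The batch 1 mice gave 13 lower and 3 higher, 7 lower and 2 higher, and 4 lower in the same order. With any 1 mouse left out the lower genes numbered 8 to 13 in MY vs. MO, 4 (without WO4 or WO5) to 8 in WO vs. MO and 0 (without WY3) to 4 in WY vs. WO. The higher ones then numbered 1 to 3 in MY vs. MO and 3 in WO vs. MO. *Psap*, the most abundant and a lysosomal activator of lipid breakdown, rose by 0.33 in MY vs. MO and by 0.31 in WO vs. MO.

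Genes of the oligodendrocyte lineage follow. Of 12 transcription factors of the lineage, none passed in WY vs. WO, 7 were lower and 1 higher (*Nkx6-2*, 0.25) in MY vs. MO, and 5 were lower and 2 higher in WO vs. MO. The mice of batch 1 gave 1 lower in WY vs. WO, 7 lower and 1 higher in MY vs. MO, and 4 lower and 1 higher in WO vs. MO, where without both WO4 and MO5 the higher ones also numbered 1 (11.7% of all genes). With batch as a term none was higher in MY vs. MO. With any 1 mouse left out the lower factors numbered 3 (without MY1 or MY2) to 7 in MY vs. MO and 2 (without WO5, MO2 or MO3) to 5 in WO vs. MO. The higher factors then numbered 0 to 1 in MY vs. MO and 2 in WO vs. MO. *Olig1* fell by 0.46 ± 0.14 in MY vs. MO and by 0.33 ± 0.11 in WO vs. MO. The latter was just inside the threshold (FDR = 0.0499), and in batch 1 it was -0.54 (FDR = 0.00981). *Zfp536* fell by 0.61 ± 0.11 in MY vs. MO and by 0.41 ± 0.11 in WO vs. MO. In WO vs. MO *Nkx6-2* rose by 0.34 and *Tcf7l2* by 0.18, the last not passing in batch 1 (FDR = 0.117). Of 8 precursor genes, none passed in MY vs. MO, 1 was lower in WY vs. WO (*C1ql1*, -0.57) and 2 were higher in WO vs. MO (*Vcan*, 0.39, and *Sox6*, 0.25). None of these 3 calls held in batch 1 alone, where *C1ql1* was -0.61 (FDR = 0.0745), *Vcan* 0.37 (FDR = 0.0547) and *Sox6* 0.24 (FDR = 0.165), and no precursor gene passed there. The counts with batch as a term were 1 lower in WY vs. WO and 2 higher in WO vs. MO, as without it. Leaving out any 1 mouse gave 0 to 1 lower in WY vs. WO and 1 to 3 higher in WO vs. MO. Of 9 genes of newly formed oligodendrocytes, 4 were lower in WY vs. WO and 4 in MY vs. MO, led by *Gpr17* (-1.07) and *Enpp6* (-1.13). In WO vs. MO, 1 was lower (*Bcas1*, -0.36) and 3 were higher (*Rras2*, 0.57, *Frmd4a*, 0.30, and *Itpr2*, 0.25). In batch 1 there were 5, 5 and 2 lower in WY vs. WO, MY vs. MO and WO vs. MO, and 3 higher in the last. None was lower in WO vs. MO without both WO4 and MO5, and 2 were with batch as a term. With any 1 mouse left out the lower ones numbered 0 (without WY3) to 5 in WY vs. WO and 1 (without MY1, MY2, MY3 or MO2) to 4 in MY vs. MO. In the list of 9 oligodendrocyte markers, which holds 4 of the myelin genes, 2 were lower in WY vs. WO, 7 in MY vs. MO and 5 in WO vs. MO (batch 1 alone 3, 9 and 6), and with any 1 mouse left out 0 to 3, 4 to 8 and 1 (without WO5 or MO2) to 6. Of 9 genes known from reactive oligodendrocytes and also made by other cells, 7 were higher in MY vs. MO and 8 in WO vs. MO, led by *Serpina3n* (3.09 and 3.32). In WY vs. WO 1 of them was lower (*Klk6*, -0.67), but not without WY3. Batch 1 had 7 higher in each of MY vs. MO and WO vs. MO, and 1 lower and 2 higher in WY vs. WO, where batch as a term also gave 2 higher.

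Markers of other cells moved in the same comparisons, and their part in the myelin results was not tested. The 5 astrocyte markers (most abundant *Gfap*) summed to 1602, 1537 and 1477 FPKM in the WY mice, 1388, 1414 and 1356 in the MY mice, 1096, 1109, 1190, 1233 and 1010 in the WO mice and 2515, 3300, 2992, 2435 and 2620 in the MO mice. The 5 microglia markers (most abundant *Csf1r*) summed to 70.3, 72.1 and 69 in WY, 70.3, 75.6 and 72.2 in MY, 71.7, 74.7, 75.5, 64.6 and 60 in WO and 134, 164, 169, 134 and 136.9 in MO. In both lists every MO mouse was above every other mouse. In WO vs. MO 4 of 5 astrocyte and 4 of 5 microglia markers were higher, in MY vs. MO 3 of 5 and 4 of 5, and in WY vs. WO 2 of 5 astrocyte markers were lower and none of the microglia markers passed. Batch 1 alone gave the same counts except for 2 astrocyte markers higher in MY vs. MO. The lower astrocyte markers of WY vs. WO numbered 0 without WY1, WY2, WY3, WO2, WO3 or WO5, 1 without WO1 and 1 with batch as a term.

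The 5 neuron markers (most abundant *Snap25*) summed to 2940, 3356 and 3217 FPKM in WY, 3406, 3300 and 3432 in MY, 3799, 3288, 3408, 3426 and 3633 in WO and 2351, 2438, 2223, 2678 and 2229 in MO. All MO mice lay below the mice of the other groups, and 4 of 5 markers were lower in MY vs. MO and 4 in WO vs. MO, with none in WY vs. WO. Of 4 motor neuron markers, 3 were lower in MY vs. MO and 3 in WO vs. MO, led by *Chat* (-0.41 and -0.67). In batch 1 alone the neuron counts were 4 and 4, and the motor neuron counts 2 and 3. In MY vs. MO the neuron count was 2 without MY1 and 2 without MY3, and the motor neuron count 1 without MY3. The 9 Schwann cell markers summed to between 74.9 and 109 FPKM in the 16 mice, mostly *Pmp22*. In that list 1 was lower in WY vs. WO (*Pmp22*, -0.26), 1 lower (*Pmp2*, -0.32) and 2 higher (*Egr2*, 0.74, and *Drp2*, 0.25) in MY vs. MO, and the latter 2 higher in WO vs. MO (0.82 and 0.35). The *Pmp22* call did not hold in batch 1 (FDR = 0.126) or with any of the 8 mice left out. Batch 1 alone gave 1 other gene lower in WY vs. WO, 2 lower and 2 higher in MY vs. MO, and 2 higher in WO vs. MO. Leaving out any 1 mouse gave 1 to 2 lower and 1 to 2 higher in MY vs. MO. None of the 4 blood genes found passed in these comparisons, in all mice or in batch 1 alone. In WO vs. MO 1 was lower without MO1, and 1 without MO4. The blood genes summed to 11.7 FPKM in MO1 and to between 43.3 and 96.8 in the other mice. MO1 was also the lowest mouse in the sums of the Schwann cell, newly formed oligodendrocyte and spinal position lists. The part of this in the myelin results was not tested. Of 4 genes of spinal position, 1 was lower in MY vs. MO (*Hoxc10*, -0.25) and 1 in WO vs. MO (*Hoxc8*, -0.43), with the same counts in batch 1 alone, and the first was lost without MY1, MY2, MY3, MO2 or MO3 and with batch as a term. All 4 had negative values in WO vs. MO. They summed to 70.4 to 72.4 FPKM in WY, 68.3 to 74.5 in MY, 74.1 to 82.5 in WO and 60.6 to 72.3 in MO. Every MO mouse thus lay below every WO mouse. Whether the same cord levels were sampled was not tested. In WY vs. MY none of the 138 genes of these and the other lists passed in limma, and 19 had an unadjusted p under 0.05 (13.8%, against 7.16% of all genes).

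In the GENCODE M21 annotation of GRCm38 the protein-coding genes *Mal* (chr2:127633226-127656695, minus strand), *Cldn11* (chr3:31149920-31164324, plus), *Ugt8a* (chr3:125865271-125938619, minus) and *Mag* (chr7:30899176-30914873, minus) lie on 3 chromosomes. *Mobp* (chr9:120149707-120181484, plus), *Cnp* (chr11:100574904-100591729, plus), *Mog* (chr17:37010743-37023398, minus) and *Opalin* (chr19:41061710-41077113, minus) lie on 4 others. *Cnp* overlaps *Dnajc7* on the opposite strand. The library kit keeps strand, but whether the authors' quantification used it is not given in the sources used here, so reads of these genes may not be separated.

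Promoters were read because 7 of the 9 genes were lower in WY vs. WO. RefSeq promoter windows of GRCm38.p6 were matched for 8 of the 9 genes (10 windows), and the 250 bases before each start were searched for ACAAAG and ACAATG, letters of the SOX motif, on both strands. At least 1 match stood before 4 of the 8 genes (*Cnp*, *Mag*, *Mobp* and *Opalin*). By windows, 5 of 10 held a match, while 25.2% of 32851 windows of all genes held one. A pair of the 3 *Mag* windows overlap and hold the same match (chr7:30914984-30914989), so it counts once. The share per gene over all genes was not computed, and a gene with several windows has more chances of a match. *Mobp* had 6 matches, and it was the only window of the 32851 with at least 6 (0.00304%). A match is a description of the letters, and a window without one says only that the letters are not there. Shown are the 3 genes that passed in WO vs. MO, from chr9:120149492-120149706 (*Mobp*, plus strand, up to the first annotated base of the gene), chr3:31149670-31149919 (*Cldn11*, plus) and chr3:125938653-125938902 (*Ugt8a*, minus). Bases run 5′ to 3′ on the strand of the gene, and capitals mark the matches, which read CTTTGT, the other strand of ACAAAG.
Mobp: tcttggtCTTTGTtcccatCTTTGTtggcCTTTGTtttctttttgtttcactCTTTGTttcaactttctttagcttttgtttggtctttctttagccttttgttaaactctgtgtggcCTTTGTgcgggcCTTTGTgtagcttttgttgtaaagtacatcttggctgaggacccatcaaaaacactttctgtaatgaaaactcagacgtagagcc
Cldn11: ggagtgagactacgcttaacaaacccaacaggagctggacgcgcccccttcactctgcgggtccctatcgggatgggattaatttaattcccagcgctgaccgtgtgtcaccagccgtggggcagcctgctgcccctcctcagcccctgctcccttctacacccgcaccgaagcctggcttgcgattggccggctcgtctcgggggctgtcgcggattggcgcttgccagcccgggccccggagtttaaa
Ugt8a: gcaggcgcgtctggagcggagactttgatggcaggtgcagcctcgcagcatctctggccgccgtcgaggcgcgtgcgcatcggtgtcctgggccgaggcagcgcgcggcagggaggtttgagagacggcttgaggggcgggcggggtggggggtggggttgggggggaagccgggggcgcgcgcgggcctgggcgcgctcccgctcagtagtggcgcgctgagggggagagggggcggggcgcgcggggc
All 6 matches of the *Mobp* window lie in the 215 bases shown, and the other windows shown hold none.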

How the data were processed

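The deposited log2 values were made by the authors, who, per their notes and methods, used Trimmomatic for cleaning, TopHat with mm10 for alignment and Cufflinks for FPKM, added 1, took log2 and adjusted for library batch with ComBat. Versions and ComBat covariates are not given in the sources used here. Of the values, 915 were below 0 and 0 exactly 0. Read counts were not analysed here, so depth per gene is unknown.

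Groups, ages and batches came from the labels, with 1 library a mouse. Each pair of groups was fitted with limma 3.58.1 in R 4.3.3 (lmFit and eBayes, two-sided) over all 18167 genes, as the second group minus the first, with Benjamini-Hochberg FDR. Age effects were compared in 1 fit of the 4 groups. Calls used an FDR of at most 0.05, alone or with a fold change of at least 1.5. The procedure was tested on simulated data.

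The genes, lists and tests were chosen with earlier results of these data known. Named were the 9 genes in every comparison, up to 3 called genes of each other list with the largest change, its most abundant gene, and the 5 most similar genes. Some genes that this rule names are not reported here. The alternatives were batch 1 only, batch as a term, a mean of at least 1, quantile normalization, a pseudocount of 0.1, an intensity trend, the replicate number as a block, each mouse left out and 1 fit of all groups. Chosen after seeing the data were WO4 and MO5 both left out, batch 2 only, and leaving out *Mbp* from means and similarity. Python 3.11.15, pandas 2.3.3, NumPy 2.4.6 and matplotlib 3.10.9 were used.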

Additional observations from a re-analysis of the deposited data

Results flagged for a closer look

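Among the WO mice, *Mbp* in WO4 was at 5.36, and its gap to the nearest WO mouse took 0.797 of the range of the group. Among the MO mice, MO5 stood apart in the sex-linked genes, with *Xist* at 3.21 (gap of 0.826 of the range) and *Ddx3y* at 1.95 (0.851). In all, 22 groups of 5 mice were looked at in this way, 18 of them for the myelin genes, and chance alone gives about 1 in 20. The cause of these values was not tested.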

How the results depend on the processing

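Counts are of the 9 myelin genes lower at an FDR of at most 0.05 unless said otherwise. With 1 fit of the 4 groups WY vs. WO gave 3, and 3 past both thresholds. Batch 1 mice alone gave 8 in MY vs. MO, and 4 lower and 0 higher in WO vs. MO (*Mbp* -0.318). In the difference of age effects they gave 1 lower (4.35% of all genes) and 1 higher (8.02%), with *Mbp* at -0.255. There 1 was past both thresholds, against 162 of all 18167 genes that were lower. With batch as a term MY vs. MO gave 9 (7 past both, against 258 of all 18167 genes), WO vs. MO 5, and the difference of age effects 1 higher. Quantile normalization left 0 higher in WO vs. MO (12.9% of all genes). For WY vs. MY it gave a median of 0.0071, with *Cldn11* at 0.0445, *Mag* at 0.0071, *Mal* at 0.0627, *Mbp* at 0.19 and *Mobp* at 0.081. A pseudocount of 0.1 gave 1 in WO vs. MO (11.7% of all genes) and 0 past both, against 257 of all 18167 genes. Of the alternatives chosen after seeing the data, leaving out both WO4 and MO5 gave 1 in WO vs. MO. It gave 0 past both, against 103 of all 18167 genes. *Mbp* was then at -0.265 in WO vs. MO and at -0.202 in the difference of age effects. Batch 2 alone, the other of these, gave 1 in WO vs. MO (1.98% of all genes), with *Opalin* at 0.385.

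Leaving out each mouse in turn gave 1 to 7 in WY vs. WO and 4 to 7 in MY vs. MO (4 without MY1, MY2 or MY3). In WO vs. MO it gave 0 to 3 lower and 0 to 1 higher, the latter against 12.4% to 15.5% of all genes. Past both were 1 to 5 in WY vs. WO, against 5 (without WY3) to 57 (without WO4) of all 18167 genes lower. MY vs. MO had 3 to 5 past both, against 116 (without MY1) to 200 (without MO4) genes. WO vs. MO had 0 to 1, against 67 (without MO1) to 129 (without MO4) genes. The difference of age effects ranged from 0 to 1 lower (4.18% to 10.2% of all genes) and 0 to 1 higher (8.0% to 12.0%). It had 0 to 1 past both, against 78 (without WY1) to 366 (without WY2) of all 18167 genes lower. Signs turned for *Mbp* in MY vs. MO (-0.318 to 0.177) and in WY vs. MY (-0.129 to 0.0291), *Mobp* in WY vs. MY (-0.0666 to 0.0288), *Opalin* in WO vs. MO (-0.217 to 0.253) and *Cnp* in the difference of age effects (-0.159 to 0.00697). None of these was called. Over single genes, 694 values kept direction and side of the threshold, 36 passed newly, 59 no longer passed and 21 changed sign. The cause was not tested, beyond the fewer mice where some are left out.

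Replicate numbers were not taken to pair the mice. Same-numbered deviations correlated at 0.377, -0.129 and 0.189 in WY vs. WO and at 0.177, 0.085 and 0.151 in MY vs. MO. Not all numbers passed 0.1 in any comparison. With so few mice a group, these values cannot show that a pairing is absent. With the replicate number as a block, WY vs. WO gave 6 (0.27% of all genes), with *Mag* lost (FDR = 0.0846). MY vs. MO gave 9 (9.31%), with 7 past both, against 258 of all 18167 genes. The difference of age effects gave 1 lower (*Mobp*, FDR = 0.032, against 6.09%) and 1 higher (*Cldn11*, FDR = 0.0276, against 9.70%). Young mice have only numbers 1 to 3, all of batch 1. In WY vs. WO and MY vs. MO the block therefore gave the batch 1 fold changes again (medians -0.896 and -0.819). Depth per gene is unknown, and batch 2 holds no young mouse.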
